A study of Mus musculus with 2 samples.

Results

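The genes described here are B2m, H2-K1, H2-D1, Tap1, Tap2, Tapbp, Psmb8, Psmb9, Psmb10 and Nlrc5, which encode the MHC class I molecule and the machinery that supplies it with peptides. They were taken by name, and all 10 were found among the 31053 genes of a table of unique molecular identifier (UMI) counts. The table comes from droplet-based single-cell RNA-seq of hepatocytes obtained by liver perfusion from C57BL/6 mice. The control library has the genotype LaptTA;WT, and the tetYAP 4W library has the genotype LaptTA; tetYAP after 4 weeks of transgene induction. Both animals carried LaptTA, the tetracycline transactivator driven by the liver-restricted LAP promoter, and only the second carried an inducible, constitutively active YAP. Transgene expression was held back by doxycycline in the food and released by a regular diet. Each group is 1 library, so no test between groups was possible. Every interval below is a 95% interval that covers counting error only, and genotype, animal, cell handling and library cannot be told apart.

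MHC class I molecules show peptides from inside the cell to CD8 T cells. The proteasome cuts cytosolic proteins, the TAP transporter carries the fragments into the endoplasmic reticulum, and a loading complex fits them onto a heavy chain paired with beta-2-microglobulin. Interferons raise many of these genes together, partly through the class I transactivator NLRC5, and hepatocytes are known for low class I levels at rest.

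Promoter sequences of 8 of the 10 genes were present in the RefSeq table for GRCm38.p6, with 9 start sites in all. The 2 below are shown because between them they hold a match to each of 3 motifs known from class I promoters. Each is printed from 150 to 11 bases before the start site, 5′ to 3′, on the + strand, with motif matches in capitals, for B2m at chr2:122147537-122147676 and for H2-D1 at chr17:35262944-35263083.
B2m: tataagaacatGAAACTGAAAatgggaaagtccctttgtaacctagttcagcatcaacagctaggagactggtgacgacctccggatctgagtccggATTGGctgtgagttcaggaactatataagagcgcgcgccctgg
H2-D1: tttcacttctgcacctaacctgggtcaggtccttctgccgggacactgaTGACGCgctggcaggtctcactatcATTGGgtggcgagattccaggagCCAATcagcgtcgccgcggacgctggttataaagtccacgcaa
The motifs were searched on both strands in the 250 bases before each start site, and the matches shown do not overlap. The core of the interferon-stimulated response element, GAAANNGAAA, occurred in 2.98% of all 32851 promoters and in 1 of the 8 genes, B2m. The X2 box core TGACGC occurred in 6.12% of promoters and in 2 genes, H2-D1 and H2-K1. The Y box ATTGG occurred in 33.8% of promoters and in 6 genes. These are letter matches and were not tested as binding sites.

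H2-K1, H2-D1, Tapbp, Tap1, Tap2, Psmb8 and Psmb9 lie on chromosome 17, within the mouse MHC or next to it. Tap1 (34187556 to 34197225) and Psmb9 (34182030 to 34187330) start close to each other and run in opposite directions. B2m lies on chromosome 2 (122147687 to 122153082), and Psmb10 (105935728 to 105938392) and Nlrc5 (94434335 to 94527272) lie on chromosome 8. H2-K1, H2-D1 and the H2-Q genes are near-identical over long stretches, so the division of reads among them is uncertain.

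The control library held 2989 barcodes and 9509885 UMIs, and the tetYAP 4W library 1524 barcodes and 6777210 UMIs. No barcode sequence was shared by the libraries. The median depth was 3117 and 4150 UMIs per barcode, and the median mitochondrial share was 28.1% and 37.7%. Xist, which is transcribed in female cells, had 3 UMIs in the control and 4859 in tetYAP 4W, so the animals also differed in sex. Barcodes were assigned to cell classes by UMIs of marker genes that exclude the 10 genes, and those below a limit for every other class were called hepatocyte-like. They numbered 2837 in the control (94.9%) and 704 in tetYAP 4W (46.2%), although the labels call all cells hepatocytes. These are shares of the barcodes left after the deepest had been removed. That step took more barcodes from tetYAP 4W if the processing ran in the order the methods give. The tetYAP 4W library also held 233 macrophage-like, 152 endothelial-like, 104 T or NK-like, 45 B-like, 40 erythroid-like, 31 monocyte or neutrophil-like and 22 stellate or mesenchymal-like barcodes. In the control, only macrophage-like (23) and endothelial-like (60) barcodes reached 20. Hepatocyte markers gave 287 UMIs per hepatocyte-like barcode in the control and 233 to 308 in its macrophage-like and endothelial-like barcodes. In tetYAP 4W they gave 310 in hepatocyte-like barcodes and 195 to 263 in the other classes, so transcripts of hepatocytes were present in barcodes of every class of this size.

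Summed over all 10 genes, class I and antigen processing transcripts were lowest in hepatocyte-like and erythroid-like barcodes among classes of at least 20 barcodes, and in tetYAP 4W they were highest in T or NK-like and endothelial-like ones. In the control, the sum was 6.61 UMIs per hepatocyte-like barcode (6.52 to 6.71), against 18.6 (16.8 to 20.4) in macrophage-like and 18.2 (17.1 to 19.3) in endothelial-like barcodes. In tetYAP 4W it was 7.63 (7.43 to 7.84) in hepatocyte-like barcodes. The other classes of that library ran from 6.75 (5.97 to 7.61) in erythroid-like through 14.8 in B-like, 15.7 in stellate or mesenchymal-like, 23.2 in macrophage-like, 24.5 in monocyte or neutrophil-like and 29.8 in endothelial-like to 32.5 (31.4 to 33.6) in T or NK-like barcodes. Single hepatocyte-like barcodes held 0 to 28 such UMIs in the control, with a median of 6, and 0 to 49 in tetYAP 4W, with a median of 7. In the control, 88.7% of all UMIs of the 10 genes (88.3 to 89.2%) came from hepatocyte-like barcodes, whose share of the whole UMI total was 93.2%. In tetYAP 4W the share was 22.6% (22.1 to 23.1%), against 44.1% of the whole total. The share was thus below that of the whole total in both libraries, and by more in tetYAP 4W.

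B2m encodes the light chain that every class I heavy chain needs at the cell surface. In the control it gave 3.71 UMIs per hepatocyte-like, 7.13 per macrophage-like and 7.77 per endothelial-like barcode. In tetYAP 4W it gave 2.67 UMIs in hepatocyte-like and 2.42 in erythroid-like barcodes, 4.64 in B-like, 5.32 in stellate or mesenchymal-like, 7.68 in monocyte or neutrophil-like, 7.81 in macrophage-like, 9.5 in T or NK-like and 10 in endothelial-like barcodes. Hepatocyte-like barcodes thus stood below every class but the erythroid-like one, with which their interval overlapped. In the order of classes, the intervals of endothelial-like and T or NK-like barcodes overlapped, as did those of macrophage-like and monocyte or neutrophil-like barcodes.

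H2-K1 and H2-D1 encode the classical heavy chains of this strain, which hold the peptide. H2-K1 gave 1.82 UMIs per hepatocyte-like, 4.45 per endothelial-like and 5.04 per macrophage-like barcode in the control. In tetYAP 4W, H2-K1 gave 2.65 in hepatocyte-like barcodes and between 2.12 in erythroid-like and 10.5 in T or NK-like barcodes elsewhere. H2-D1 gave 0.737 UMIs per hepatocyte-like barcode in the control, with 3.87 in macrophage-like and 4.53 in endothelial-like barcodes. In tetYAP 4W, H2-D1 gave 1.60 in hepatocyte-like barcodes and between 1.68 in erythroid-like and 7.91 in endothelial-like barcodes elsewhere. Among classes of at least 20 barcodes, both heavy chains were therefore sparser in hepatocyte-like barcodes than in any leukocyte-like or endothelial-like class. The intervals did not overlap within a library.

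The remaining 7 genes were counted much more thinly. Tap1 and Tap2, whose products pair to form the peptide transporter, gave 0.0173 and 0.0187 UMIs per hepatocyte-like barcode in the control and 0.0625 and 0.0668 in tetYAP 4W. Tapbp, which encodes the loading chaperone tapasin, gave 0.0835 and 0.244. The highest level of Tapbp in tetYAP 4W was 1.06, in monocyte or neutrophil-like barcodes. Psmb8, Psmb9 and Psmb10 encode the catalytic subunits of the immunoproteasome, the form of the proteasome that interferon induces. Psmb8 gave 0.0860 and 0.142 UMIs per hepatocyte-like barcode in the control and tetYAP 4W, and 2.12 in T or NK-like barcodes of tetYAP 4W. Psmb9 gave 0.0448 and 0.0526, and Psmb10 gave 0.0909 and 0.131 in the hepatocyte-like barcodes. Nlrc5 was represented by 9 UMIs in control and 14 UMIs in tetYAP 4W hepatocyte-like barcodes, and T or NK-like barcodes held the highest level, 0.192 UMIs per barcode. No Nlrc5 UMI was found in the 45 B-like barcodes, which allows up to 0.0667 UMIs per barcode.

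**Figure D1:**
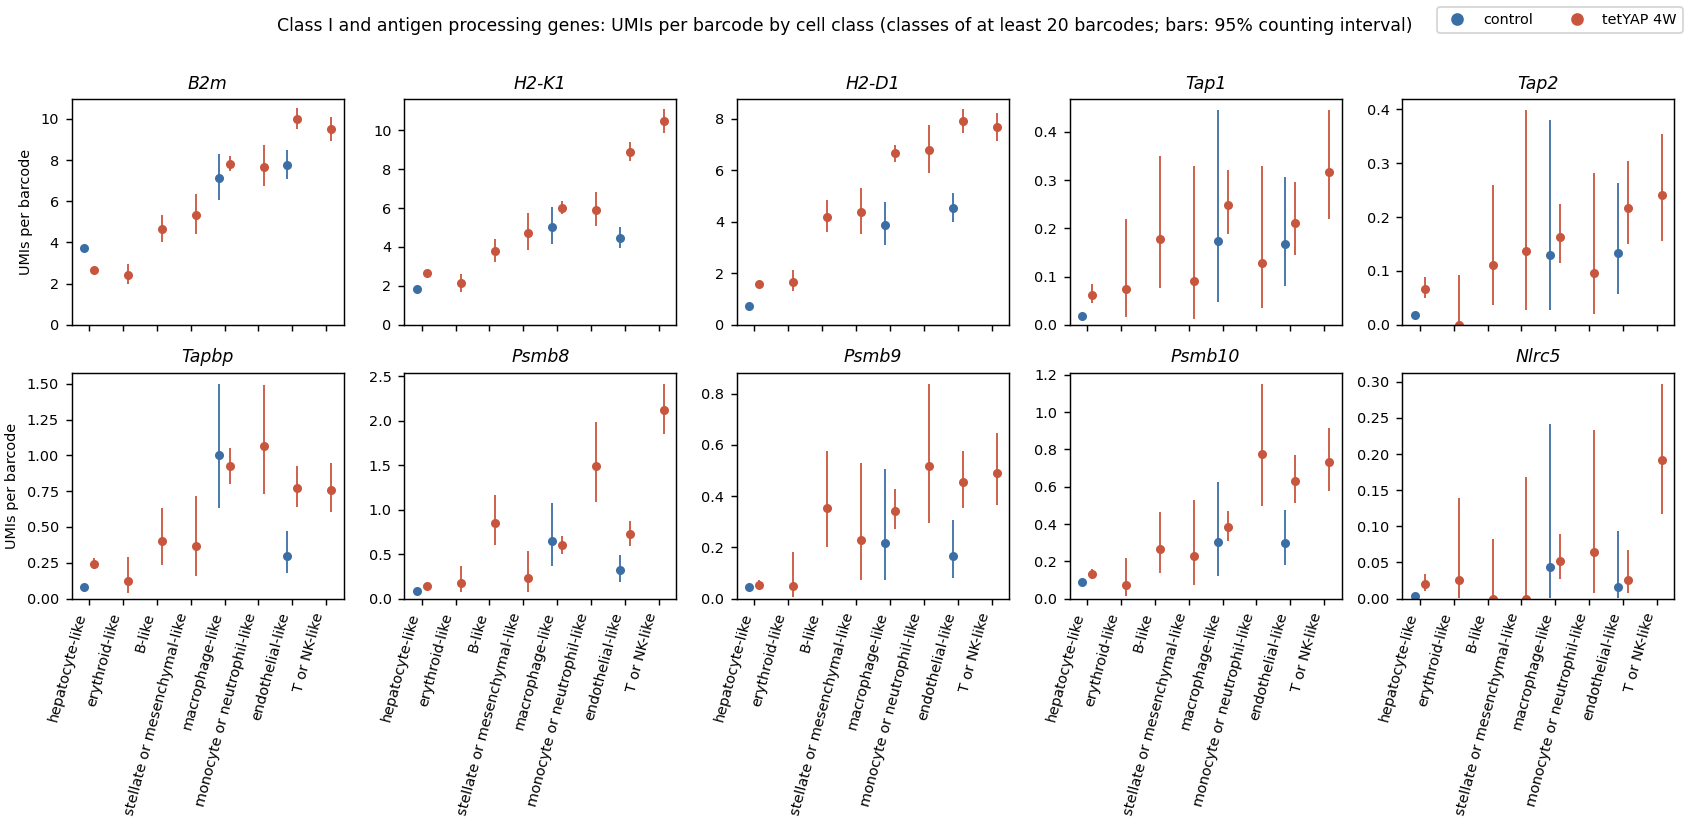
UMIs per barcode of each of the 10 genes (vertical axis, from 0) in each cell class (horizontal axis), for the control (blue) and tetYAP 4W (red), with 95% counting intervals as bars and only classes of at least 20 barcodes. Hepatocyte-like barcodes sit near the bottom of each panel, beside the erythroid-like ones, as for B2m with 2.67 and 2.42 UMIs in tetYAP 4W.

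The next question was whether hepatocyte-like barcodes held more of these transcripts than RNA set free by the other cells would give. The leak from each class was taken as the median, over reference genes of that class, of the level in hepatocyte-like barcodes relative to the class itself. In the control it was 0.304% for macrophage-like and 0.738% for endothelial-like barcodes. In tetYAP 4W it was 3.93% for macrophage-like, 1.81% for stellate or mesenchymal-like, 1.62% for endothelial-like, 0.936% for monocyte or neutrophil-like, 0.244% for B-like and 0.214% for T or NK-like barcodes. Leak times class level, summed over classes, gave an estimate for every gene. It covers no RNA set free by hepatocytes, although control hepatocyte markers gave 287 UMIs per hepatocyte-like and 308 per endothelial-like barcode. An excess over the estimate therefore cannot tell RNA inside a hepatocyte from free hepatocyte RNA.

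In the control, observed levels exceeded the estimate by a wide margin for B2m, at 47.0 times (46.1 to 47.9), for H2-K1, at 37.8 times (36.8 to 38.8), and for H2-D1, at 16.3 times (15.6 to 17.0). The 9 genes with at least 10 UMIs lay between 9.82 times (Tap1) and 47.0 times, with a median of 19.9, and all 9 remained above 1 when the highest leak of any reference gene was used. In tetYAP 4W, where more classes entered the estimate, the ratios were much smaller, though less so with a common leak taken from leukocyte genes. B2m stood at 3.99 times the estimate (3.81 to 4.17), H2-K1 at 4.78 (4.57 to 5.004) and H2-D1 at 2.86 (2.69 to 3.03). The 10 genes lay between 1.66 (1.17 to 2.28) for Psmb9 and 5.74 (3.14 to 9.63) for Nlrc5, with a median of 3.62 and all 10 lower bounds above 1. By this estimate, free RNA of other cells amounted to 2.13% of the B2m UMIs in control and 25.1% in tetYAP 4W hepatocyte-like barcodes, and to 60.4% of the Psmb9 UMIs in tetYAP 4W.

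The tetYAP 4W ratios depended on the reference genes. With the highest leak in each class, 0 of the 10 genes exceeded the estimate, and the median fell to 0.274. That leak was set in monocyte or neutrophil-like barcodes by Wfdc21, which gave 3.42 UMIs per hepatocyte-like and 4.16 per monocyte or neutrophil-like barcode, a leak of 82.3%. With the second highest leak the median was 2.02. With the mean leak it was 1.23, and H2-D1 (0.967), Psmb8 (0.511), Psmb9 (0.472) and Psmb10 (0.848) lay below 1. That mean also includes Wfdc21, whereas the other monocyte or neutrophil references had leaks of 0 to 2.49%. Genes that hepatocytes are not known to express served as a check. Over leukocyte genes with at least 10 UMIs, the median ratio was 1.66 in the control (5 genes) and 0.807 in tetYAP 4W (9 genes). Over class II genes it was 0.967 and 0.800 (3 genes each). The highest leak in tetYAP 4W put these leukocyte genes at 0.0142 (Coro1a) to 0.0512 (Rac2) of the estimate. It put these class II genes at 0.0258 (H2-Aa) to 0.0374 (Cd74). That leak thus gave far more free RNA than the check genes showed. The check was not made for the mean or second highest leak. In the control, Lcp1 (12.3 times) and Cd52 (2.68 times, 1.72 to 3.99) had lower bounds above 1. H2-Q10, a secreted class I molecule made by hepatocytes, stood at 114 times the estimate in the control and 14.3 times in tetYAP 4W.

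**Figure D2:**
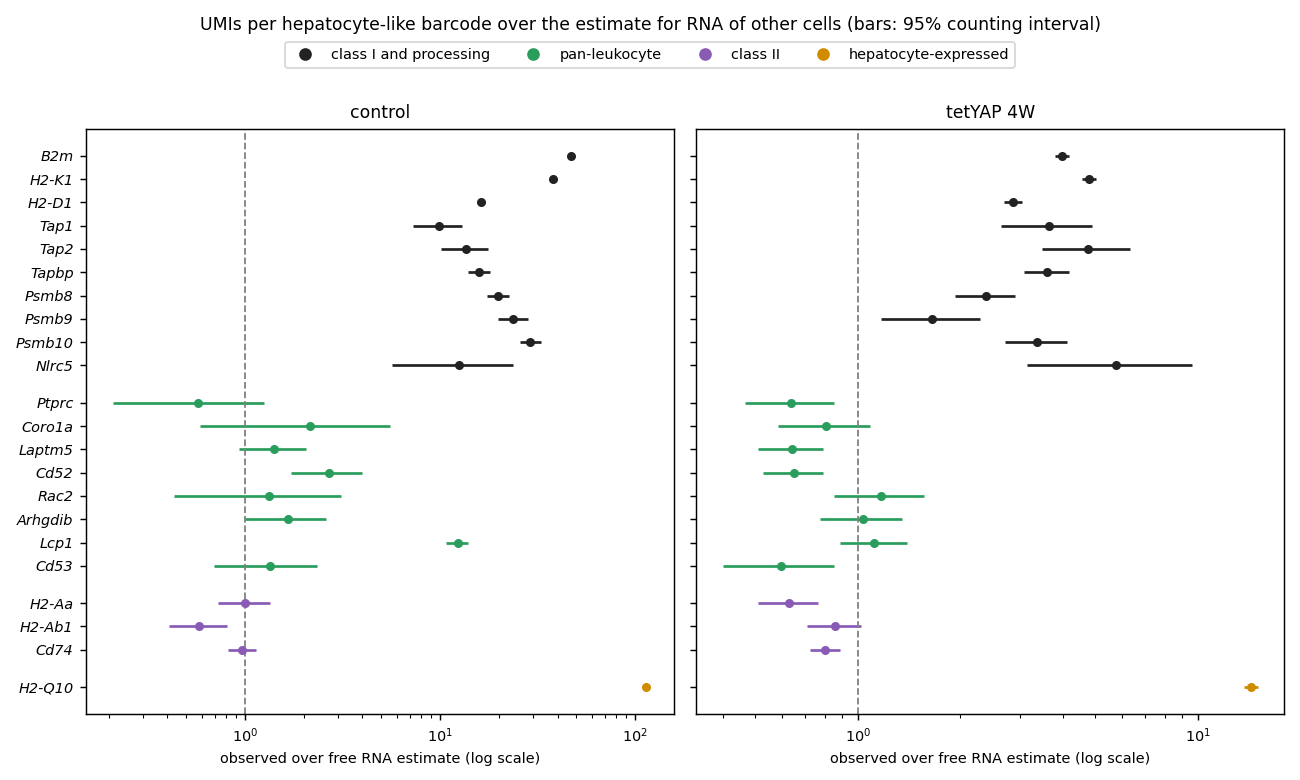
Ratio of observed UMIs per hepatocyte-like barcode to the free RNA estimate (log axis; the dashed line marks 1) for the 10 genes, leukocyte genes, class II genes and H2-Q10, in the control (left) and tetYAP 4W (right), with 95% counting intervals as bars. With the median leak plotted here, the 10 genes lie to the right of the line in both panels, with medians of 19.9 and 3.62, whereas class II genes lie at or below it.

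Erythroid-like barcodes offered a second baseline, since their own cell type is defined by globin transcripts and they also held hepatocyte transcripts. The 40 erythroid-like barcodes of tetYAP 4W held 241 UMIs of hepatocyte markers each, against 310 in hepatocyte-like barcodes. B2m was at 2.67 UMIs in hepatocyte-like and 2.42 in erythroid-like barcodes, a log2 ratio of 0.14 (-0.16 to 0.45). H2-K1 had a log2 ratio of 0.32 (0.0025 to 0.65) and H2-D1 of -0.07 (-0.42 to 0.31). The interval lay above 0 for 1 of the 10 genes, H2-K1, and for 3.35% of all genes, and below 0 for none of the 10, against 2.21% of all genes. H2-Q10 had a log2 ratio of 0.48 (0.16 to 0.83). In tetYAP 4W, whether the hepatocyte-like level exceeded RNA of the other classes thus depended on the leak taken, of which the highest overstated the check genes. For 9 of the 10 genes this level was not separable from that of erythroid-like barcodes at this depth. Of 13 hepatocyte markers, 7 had intervals above 0, with a median log2 ratio of 0.34. The median mitochondrial share was 57.5% in hepatocyte-like and 28.7% in erythroid-like barcodes. Erythroid-like barcodes were themselves rich in hepatocyte RNA. They therefore cannot decide whether hepatocytes expressed these genes. The control held 5 erythroid-like barcodes, with 11.0 UMIs of the 10 genes per barcode (8.29 to 14.3). Its hepatocyte-like barcodes held 6.61 (6.52 to 6.71), and B2m had a log2 ratio of -0.79 (-1.28 to -0.24). On these few barcodes, the summed hepatocyte-like level of the control was thus not above the erythroid-like one. Hepatocyte markers also gave 287 UMIs per barcode in both classes of the control, with 0 of 13 intervals above 0. This baseline did not set even hepatocyte markers apart, so it cannot decide the question for the 10 genes.

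The balance between the heavy chains differed between classes. Of the UMIs of H2-D1 and H2-K1 together, H2-D1 made up 28.8% (27.8 to 29.9%) in control hepatocyte-like barcodes, 43.4% (36.5 to 50.5%) in macrophage-like and 50.5% (46.2 to 54.8%) in endothelial-like barcodes. In tetYAP 4W the share was 37.7% (35.9 to 39.4%) in hepatocyte-like barcodes and 42.3% (40.0 to 44.6%) in T or NK-like barcodes. It was 44.1% (36.0 to 52.4%) in erythroid-like barcodes and up to 53.4% in monocyte or neutrophil-like barcodes. Among classes of at least 20 barcodes, the hepatocyte-like share was the lowest in each library, and its interval overlapped only that of the erythroid-like barcodes. With the free RNA estimate taken off both genes, it was 28.1% in the control and 33.2% in tetYAP 4W.

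Between libraries, the 10 genes were first compared over all barcodes, as CPM, the UMIs of a gene scaled to a common library total. B2m stood at 1215 CPM in the control and 1162 in tetYAP 4W, a log2 ratio of -0.07 (-0.11 to -0.02). Its direction turned without mitochondrial genes in the total (0.20) and as UMIs per barcode (0.42). H2-K1 stood at 608 and 1052 CPM (0.79, 0.74 to 0.84) and H2-D1 at 275 and 886 CPM (1.69, 1.62 to 1.75). The 10 genes had a median log2 ratio of 1.76, against 0.60 over all 12621 genes with at least 10 UMIs, and 8 of them were at least 2-fold higher in tetYAP 4W, as were 38.3% of all genes. None was at least 2-fold lower, against 7.89% of all genes. The interval lay above 0 for 9 of the 10 and below 0 for 1, against 51.4% and 18.5% of all genes. The share of barcodes outside the hepatocyte-like class differed between the libraries at the same time, and leukocyte genes had a median log2 ratio of 4.66.

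Within hepatocyte-like barcodes the genes did not move together. B2m stood at 1188 CPM in the control and 628 in tetYAP 4W, a log2 ratio of -0.92 (-0.99 to -0.85). H2-K1 was at 583 and 623 CPM (0.10, 0.02 to 0.17), and H2-D1 at 236 and 376 CPM (0.67, 0.57 to 0.78). All ratios here include free RNA of other cells. By the estimate, it made up 2.65% of H2-K1 and 6.14% of H2-D1 UMIs in the control, and 20.9% and 35.0% in tetYAP 4W. After it was taken off, H2-K1 was at 1.77 UMIs per barcode in the control and 2.09 in tetYAP 4W, and H2-D1 at 0.691 and 1.04. Genes of peptide transport and loading stood higher in tetYAP 4W, with log2 ratios of 1.41 (0.79 to 2.03) for Tap1, 1.39 (0.80 to 1.99) for Tap2 and 1.11 (0.81 to 1.39) for Tapbp. Nlrc5 had a ratio of 2.20 (0.89 to 3.59) on 23 UMIs. The intervals of Psmb8 (0.28, -0.07 to 0.62), Psmb9 (-0.21, -0.78 to 0.33) and Psmb10 (0.08, -0.28 to 0.43) included 0. The median of the 10 genes was 0.48, against -0.18 over all 10838 genes with at least 10 UMIs. At least 2-fold higher were 4 of the 10 genes, as were 15.9% of all genes, and at least 2-fold lower were 0, against 16.4% of all genes. The interval lay above 0 for 6 of the 10, against 19% of all genes, and below 0 for 1, against 30.3%.

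Mitochondrial transcripts took a median of 28.2% of UMIs in control and 57.5% in tetYAP 4W hepatocyte-like barcodes, which lowers the CPM of other genes. With mitochondrial genes left out of the total, the median of the 10 genes was 1.13 and that of all genes 0.48. On that scale 5 of the 10 were at least 2-fold higher, against 30.1% of all genes, and 0 at least 2-fold lower, against 3% of all genes. B2m was still lower in tetYAP 4W, at -0.27 (-0.34 to -0.19). Among barcodes with at most 30% mitochondrial UMIs, however, the B2m interval included 0 on the CPM scale (-0.04, -0.19 to 0.11). With mitochondrial genes left out, the intervals of H2-K1 (0.75), H2-D1 (1.33), Psmb8 (0.94) and Psmb10 (0.73) lay above 0. These ratios include free RNA. After its estimate was taken off, Psmb8 was at 0.0817 UMIs per barcode in the control and 0.0823 in tetYAP 4W, and Psmb10 at 0.0878 and 0.0919. Leukocyte genes had a median log2 ratio of 3.60 and class II genes of 3.04 in hepatocyte-like barcodes on the CPM scale. Their part in the change of the 10 genes was not tested beyond the free RNA estimate.

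**Figure D3:**
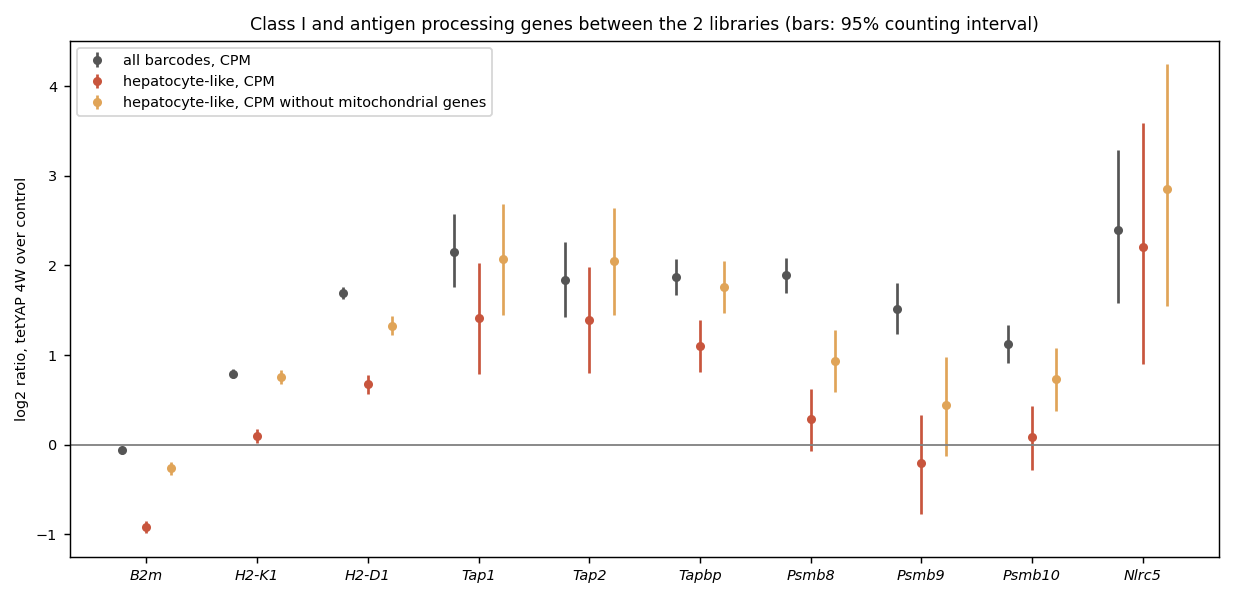
Log2 ratio of tetYAP 4W over control (vertical axis) for the 10 genes, over all barcodes (grey), in hepatocyte-like barcodes as CPM (red) and as CPM without mitochondrial genes (yellow), with 95% counting intervals as bars. B2m lies below 0 in hepatocyte-like barcodes on both scales (-0.92 and -0.27), while Tap1, Tap2, Tapbp and Nlrc5 lie above 0 on each.

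The immunoproteasome was also compared with the constitutive subunits it replaces, as the share of each pair, which does not depend on the total. Psmb8 made up 14.6% (12.9 to 16.4%) of the UMIs of Psmb8 and Psmb5 in control hepatocyte-like barcodes and 36.2% (30.6 to 42.2%) in tetYAP 4W. Psmb9 made up 7.68% (6.44 to 9.07%) and 14.0% (10.02 to 18.7%) of its pair with Psmb6. Psmb10 made up 24.1% (21.6 to 26.8%) and 37.4% (31.3 to 43.8%) of its pair with Psmb7. For all 3 pairs the intervals of the libraries did not overlap. With the free RNA estimate taken off both genes of a pair, the shares in the control and tetYAP 4W were 14.1% and 28.4% for Psmb8, 7.47% and 7.16% for Psmb9, and 23.8% and 32.2% for Psmb10. The Psmb9 share was thus no longer higher in tetYAP 4W after this step. The constitutive subunits had log2 ratios in hepatocyte-like barcodes of -1.45 for Psmb5, -1.18 for Psmb6 and -0.83 for Psmb7 as CPM. Without mitochondrial genes these were -0.80, -0.52 and -0.18 (-0.43 to 0.07), and Psmb8 (0.94) and Psmb10 (0.73) were higher, with free RNA not taken off. In tetYAP 4W the Psmb8 share was 74.8% in T or NK-like, 84.4% in B-like, 61.8% in macrophage-like and 36.8% (16.3 to 61.6%) in erythroid-like barcodes.

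**Figure D4:**
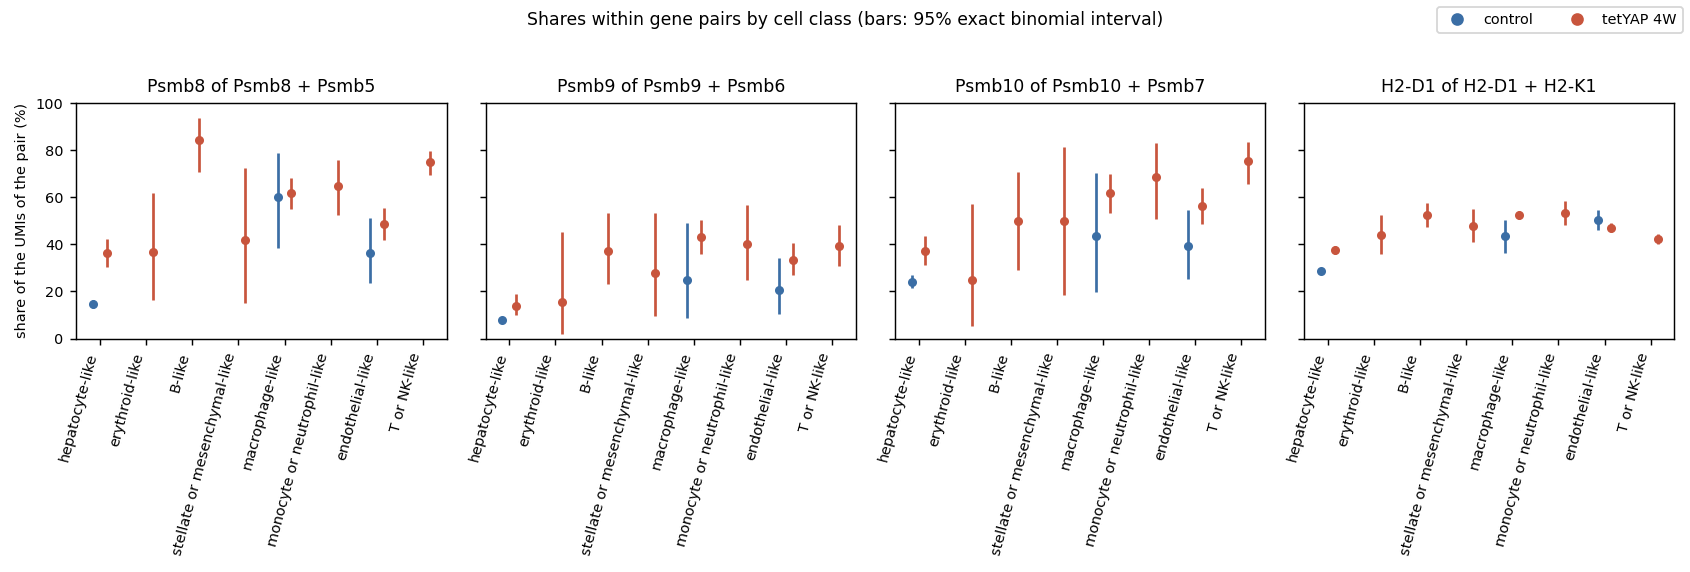
Share of the first gene in the UMIs of a gene pair (vertical axis, in percent) by cell class (horizontal axis) in the control (blue) and tetYAP 4W (red), with exact binomial 95% intervals as bars. In hepatocyte-like barcodes the share of Psmb8 is 14.6% in the control and 36.2% in tetYAP 4W.

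Outside the hepatocyte-like class, 2 classes could be compared between libraries. In endothelial-like barcodes, H2-K1 (log2 ratio 0.76, 0.57 to 0.95), H2-D1 (0.56, 0.37 to 0.76), Tapbp (1.12, 0.39 to 1.92), Psmb8 (0.95, 0.24 to 1.74), Psmb9 (1.20, 0.24 to 2.33) and Psmb10 (0.83, 0.10 to 1.65) were higher in tetYAP 4W. These were 6 of the 9 genes with at least 10 UMIs, against 12.1% of all genes, and Nlrc5 lay below that minimum. The B2m interval included 0 there (0.12, -0.03 to 0.28). In macrophage-like barcodes only the H2-D1 interval lay above 0 (0.74, 0.44 to 1.07), on 23 control barcodes, where 3.73% of all genes did.

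Related genes of the pathway were described from lists of heavy chains and other partners of beta-2-microglobulin, loading factors, proteasome activators and regulators. In hepatocyte-like barcodes, as CPM, 8 of 12 counted partner genes had intervals above 0, against 19% of all genes, 1 below 0, against 30.3%, and 3 that included 0. Without mitochondrial genes, 11 of the 12 lay above 0, against 36.9% of all genes, and 1 below. H2-Q10 was the lower one on both scales. Its log2 ratio was -0.90 (-0.97 to -0.83) as CPM, close to that of B2m, and -0.24 without mitochondrial genes. As CPM, H2-Q4 (1.96, 1.3 to 2.64), H2-Q6 (1.20, 0.44 to 1.96) and Cd1d1 (0.28, 0.08 to 0.48) were higher, and H2-T23 gave 0.19 (-0.02 to 0.39). H2-Q1 had 1 UMI in the control and 118 in tetYAP 4W (interval of the log2 ratio 5.94 to 13.8). Of 5 loading factors, the endoplasmic chaperone gene Calr gave -0.04 (-0.13 to 0.05), its relative Canx gave -0.16 (-0.28 to -0.04), the thiol oxidoreductase gene Pdia3 gave 0.27 (0.12 to 0.42) and the tapasin relative Tapbpl gave 0.43 (-0.41 to 1.22). Without mitochondrial genes all 5 intervals lay above 0, with Calr at 0.62 and Canx, whose direction turned, at 0.50. The proteasome activator genes Psme1 (-0.60) and Psme2 (-0.67) were lower as CPM, but without mitochondrial genes (0.05 and -0.02) and as UMIs per barcode (-0.16 and -0.23) both intervals included 0. Of 14 regulators, 7 had intervals above 0 as CPM and 2 were at least 2-fold higher, the latter close to the 15.9% of all genes. The 7 held the interferon gamma receptor gene Ifngr1 (1.88, 1.36 to 2.40), the interferon signalling gene Stat2 (1.16, 0.74 to 1.58), and Irf1 and the interferon alpha receptor gene Ifnar1, which had equal counts (0.998, 0.29 to 1.69). These ratios include free RNA. By the estimate, its share in the control and tetYAP 4W was 28.8% and 69.6% for Irf1, and 16.3% and 47.7% for Ifngr1. For Ifnar1 it was 7.12% and 34.3%, and for Stat2 4.21% and 20.6%. Irf1 in tetYAP 4W stood at 1.44 times the estimate (0.98 to 2.04). Irf2 (-0.76) and Ifnar2 (-0.84) were lower as CPM, and their intervals included 0 without mitochondrial genes (-0.11 and -0.19), where 10 of the 14 lay above 0 and none below.

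Hepatocyte-like barcodes with at least 0.3% of UMIs from the nuclear RNAs Malat1 and Neat1 were compared with the others. There were 52 such barcodes of 2837 in the control and 69 of 704 in tetYAP 4W. The intervals of 7 of 9 genes in the control and of 8 of 10 in tetYAP 4W included 0. Over all genes, the interval lay above 0 for 18.5% and 42.7% and below 0 for 3.78% and 0.526%. In tetYAP 4W, H2-D1 (517 and 362 CPM, log2 ratio 0.51, 0.24 to 0.77) and Nlrc5 (8 and 6 UMIs, 3.78, 2.06 to 5.58) were higher in the nuclear-RNA-rich barcodes. In the control, B2m was lower there (-0.23, -0.44 to -0.02) and Tap1 higher (2.04, 0.10 to 3.49, on 4 and 45 UMIs). The rich barcodes also held more UMIs of leukocyte and class II genes, 2.54 against 0.151 per barcode in the control and 4 against 1.32 in tetYAP 4W, and their part in these differences was not tested.

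Hepatocyte-like barcodes of tetYAP 4W with at most 30% mitochondrial UMIs numbered 92, and 612 lay above that. The 10 genes summed to 9.92 UMIs per barcode (9.29 to 10.6) in the former and 7.29 (7.07 to 7.50) in the latter. B2m was at 4.21 (3.80 to 4.65) and 2.44 (2.31 to 2.56) UMIs per barcode. In the control, B2m was at 3.87 and 3.47 UMIs in 1742 and 1095 barcodes. Among barcodes with at most 30% mitochondrial UMIs, the B2m level was 1259 (control) and 1222 (tetYAP 4W) CPM. Among those above 30% it was 1081 and 558 CPM. With mitochondrial genes left out of the total, B2m was at 1674 and 1567 CPM in the former barcodes and at 1672 and 1353 CPM in the latter, so the libraries were further apart where more of the RNA was mitochondrial.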

How the data were processed

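The authors deposited raw counts, as whole UMIs per gene and barcode. Per the labels and methods, reads were processed with Cell Ranger on mm10. By the methods, barcodes were down-sampled to an equal number per condition, and the deepest were removed. The table held 2989 control barcodes (from 516 UMIs) and 1524 of tetYAP 4W (from 2355 UMIs). If the steps ran in that order, tetYAP 4W lost far more barcodes to the depth limit than the control. The barcodes removed were the deepest, so its levels and class shares come from the shallower ones. The part of this in the differences between libraries was not tested. The highest total in the table was 7493, and no column was left unused. Counts were summed per library and class with Python 3.11.15, numpy 2.4.6 and scipy 1.17.1, and ratios carry exact conditional binomial intervals, sums exact Poisson intervals and shares exact binomial (Clopper-Pearson) intervals, with counts under 3 set to 3 in ratios. A named class needed at least 10 marker UMIs (20 for macrophage-like) from at least 3 markers. Hepatocyte-like barcodes lay below 3 to 10 marker UMIs in each class. These limits were set after the marker counts were seen, and 22 control and 28 tetYAP 4W hepatocyte-like barcodes lay within 1 UMI of a limit. Barcodes with 2 classes near equal (1 and 15) or between limits (47 and 176) were left out of classes, and no other doublet call was made. Scripts were tested on simulated data.

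The genes and lists were chosen with earlier results of these data known. All 10 genes are named, with, per list, the 3 genes of most UMIs and the 3 of largest ratio among genes of at least 30 UMIs. The 10 other genes most correlated with the summed level were also to be named, and some of them are not reported here. Alternatives were other scalings, marker limits, leaks and nuclear limits. Transcripts other than UMIs of annotated genes were not analysed here.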

Additional observations from a re-analysis of the deposited data

How the results depend on the processing

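No paired analysis was possible because each group has 1 library. Over all barcodes, the median log2 ratio of the 10 genes was 1.76, and 2.23 with at most 30% mitochondrial UMIs, 2.25 as UMIs per barcode and 2.02 without mitochondrial genes. B2m changed sign under these, to 0.43, 0.42 and 0.20. Within the hepatocyte-like class the median was 0.48, and 1.07 with at most 30% mitochondrial UMIs, 0.92 as UMIs per barcode, 1.13 without mitochondrial genes, 1.06 without these and the 50 most abundant genes, and 0.82 with a higher marker limit. Against free RNA, the control median of 19.9 became 14.8 with a higher marker limit, 6.62 with 1 leak from leukocyte genes, 22.7 with at most 30% mitochondrial UMIs, 11.2 with the highest and 15.1 with the second highest leak. The tetYAP 4W median of 3.62 became 4.33 and 2.69 with a lower and a higher marker limit, 1.23 with the mean leak, 4.98 with 1 leak from leukocyte genes, 2.06 with at most 30% mitochondrial UMIs, 2.02 with the second highest and 0.274 with the highest leak. With the mean leak, which includes Wfdc21, H2-D1 (0.967), Psmb8 (0.511), Psmb9 (0.472) and Psmb10 (0.848) fell below 1. With the highest leak, B2m (0.323), H2-K1 (0.404), H2-D1 (0.222), Tap1 (0.400), Tap2 (0.533), Tapbp (0.233), Psmb8 (0.102), Psmb9 (0.102), Psmb10 (0.177) and Nlrc5 (0.315) did, and with the second highest, Psmb9 (0.917). Against erythroid-like barcodes, the 3 genes with at least 10 UMIs there had a median of 1.1, with H2-D1 at 0.954; the control had too few such barcodes. The share of the UMIs in hepatocyte-like barcodes was 86.2% and 90.8% in the control and 15% and 30.4% in tetYAP 4W with lower and higher limits. With the free RNA estimate taken off, the tetYAP 4W pair shares of Psmb8 (28.4%), Psmb9 (7.16%) and H2-D1 (33.2%) left their intervals. In hepatocyte-like barcodes with at most 30% mitochondrial UMIs, the B2m log2 ratio was -0.04. This subtraction, the highest and second highest leaks, the erythroid-like baseline and the total without mitochondrial genes were chosen after seeing the data. Other limits of nuclear RNA left the medians within their intervals.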

Other observations

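Across 11 combinations of class and library with at least 20 barcodes, the genes whose level followed the summed level of the 10 genes most closely included Prrc2c (Pearson r = 0.956 on log2(CPM + 10)), Chd8, Pak2, Hsp90ab1, Tpr, Purb and Lbh (0.934), out of 7819 genes with at least 100 UMIs. The combinations share 2 libraries and differ in depth and mitochondrial share, so this is a description. Of the 10 genes themselves, H2-K1 followed the sum most closely (0.964) and Nlrc5 least (0.456).

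Among genes used as references for other cells, Cxcl12 gave 0.312 UMIs per hepatocyte-like and 2.36 per stellate or mesenchymal-like barcode in tetYAP 4W, a ratio of 13.2%, where the class median was 1.81%. Lcp1 gave 233 UMIs in the 2837 control hepatocyte-like barcodes and 81 UMIs in the 704 of tetYAP 4W.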
